A study of Homo sapiens with 2 samples.

Results

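The mitochondrial ribosomal protein genes are the nuclear genes for the protein subunits of the mitochondrial ribosome, or mitoribosome. They were taken as the protein-coding genes whose symbol is MRPL (large subunit) or MRPS (small subunit) followed by a number. Pseudogenes, antisense genes and read-through genes with a hyphen were left out. The rule found 78 genes, 49 of the large and 29 of the small subunit, among 58174 genes listed. All 78 averaged at least 1 TPM. TPM is a relative abundance: reads per transcript length, scaled so that the genes of any library add up to the same sum.

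The RNA came from PC3 cells, an established human line from a prostate cancer metastasis, and was sequenced. There were 2 libraries, 1 from cells transfected with POH1 siRNA and 1 from cells transfected with Control siRNA. POH1, whose gene symbol is PSMD14, is the deubiquitinase of the proteasome lid, and a small interfering RNA (siRNA) is used to lower the messenger RNA of its target. The number of siRNA sequences and the time after transfection are not known from the labels. With 1 library per group there is no replicate error and no test. All values below compare these libraries only, without a replicate check.

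The mitoribosome translates the few proteins that the mitochondrial genome encodes, all of them core subunits of the respiratory chain and ATP synthase. Its ribosomal RNAs are mitochondrial transcripts, while every one of its proteins is made in the cytosol and imported. Some of these proteins have counterparts in bacterial ribosomes, and others are particular to mitochondria. Each is present about once per particle, apart from the stalk protein MRPL12.

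The targeted gene PSMD14 was at 35.1 TPM in the POH1 siRNA library and 50.9 TPM in the control library. That is 1.45-fold lower, within the 1.5-fold limit used for calls below. Its difference in log2(TPM + 1) was -0.52, and -0.24 after the adjustment for GC content described below. The epithelial keratin genes KRT8 (556 and 517 TPM) and KRT18 (454 and 455 TPM) were abundant in the POH1 siRNA and control libraries, and EPCAM was at 141 and 124 TPM. The prostate antigen gene KLK3 was listed at 0 in both. The leukocyte gene PTPRC was at 0.0568 TPM in the POH1 siRNA library and listed at 0 in the control library. The endothelial gene PECAM1 was at 3.88 and 4.90 TPM, and the collagen gene COL1A1 at 47.8 TPM in the POH1 siRNA and 30.9 TPM in the control library. In RNA from whole cultures, fewer cells of a type and less RNA per cell cannot be told apart.

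Coding sequences of 3 members with contrasting base composition are shown first, that of MRPS33 by its first 300 bases. They are examples, and base composition over all members is given below. MRPL34 had the highest difference (POH1 siRNA less control) in the large subunit. MRPS33 had the lowest in the small subunit, and MRPL33 has the shortest coding sequence of all members. The sequences are read 5′ to 3′ from GENCODE release 29 transcripts on build GRCh38. Bases G and C are in capitals, and A and T in lower case.
MRPL34: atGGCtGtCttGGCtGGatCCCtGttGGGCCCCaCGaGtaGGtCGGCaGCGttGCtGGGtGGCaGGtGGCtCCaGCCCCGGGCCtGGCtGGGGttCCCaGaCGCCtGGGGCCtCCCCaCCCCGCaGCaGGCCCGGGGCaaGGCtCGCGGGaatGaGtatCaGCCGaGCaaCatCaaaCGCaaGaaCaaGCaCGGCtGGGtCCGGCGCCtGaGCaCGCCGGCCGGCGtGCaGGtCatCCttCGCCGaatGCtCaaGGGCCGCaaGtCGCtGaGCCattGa
MRPL33: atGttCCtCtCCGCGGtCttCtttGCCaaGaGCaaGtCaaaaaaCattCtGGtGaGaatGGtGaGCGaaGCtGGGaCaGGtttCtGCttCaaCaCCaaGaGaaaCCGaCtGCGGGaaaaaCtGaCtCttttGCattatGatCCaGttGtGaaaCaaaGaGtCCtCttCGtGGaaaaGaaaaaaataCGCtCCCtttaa
MRPS33: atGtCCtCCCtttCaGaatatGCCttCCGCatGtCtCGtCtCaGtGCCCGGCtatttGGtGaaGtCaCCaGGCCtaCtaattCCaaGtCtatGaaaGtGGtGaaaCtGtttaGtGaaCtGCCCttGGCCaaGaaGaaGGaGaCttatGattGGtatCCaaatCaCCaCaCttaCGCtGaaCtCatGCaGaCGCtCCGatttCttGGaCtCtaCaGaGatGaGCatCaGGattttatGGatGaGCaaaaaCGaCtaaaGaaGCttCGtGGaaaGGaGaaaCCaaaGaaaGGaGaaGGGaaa
The MRPL34 coding sequence has 279 bases and lies within chr19:17305893-17306376 on the plus strand. G and C make up 67.7% of its bases. MRPL33, with 198 bases within chr2:27771778-27779479 on the plus strand, has 43.9% GC. MRPS33, with 321 bases within chr7:141006433-141010633 on the minus strand, has 44.5% GC. Over all 78 members the coding sequence ran from 198 to 1320 bases (median 588), and its GC content from 38.2% to 68.0% (median 52.2%).

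Of the mitochondrial ribosomal protein genes, 48 had a lower level in the POH1 siRNA library than in the control library and 30 a higher one, most by a small amount. Of the 78 genes, 13 were at least 1.5-fold lower, 1 was at least 1.5-fold higher and 64 lay within 1.5-fold. These calls were made on the difference in log2(TPM + 1), POH1 siRNA less control, which understates the fold of low genes. Of all 15008 genes that averaged at least 1 TPM, 8.88% were 1.5-fold lower and 10.2% were 1.5-fold higher. The shares were 8.32% and 9.38% of protein-coding genes, and 8.45% and 9.41% of genes that averaged at least 5 TPM. The members' shares were 16.7% lower and 1.28% higher. Their median log2 difference was -0.09, against 0.12 for all genes, and 59 of the 78 (75.6%) lay below the median of all genes. Scaling the libraries to a median ratio of 1 lowers log2 ratios by about 0.14, and the differences of low genes by less. It turns the 11 members between 0 and 0.14 to the other side of 0, so the members' median is given beside that of all genes.

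**Figure D1:**
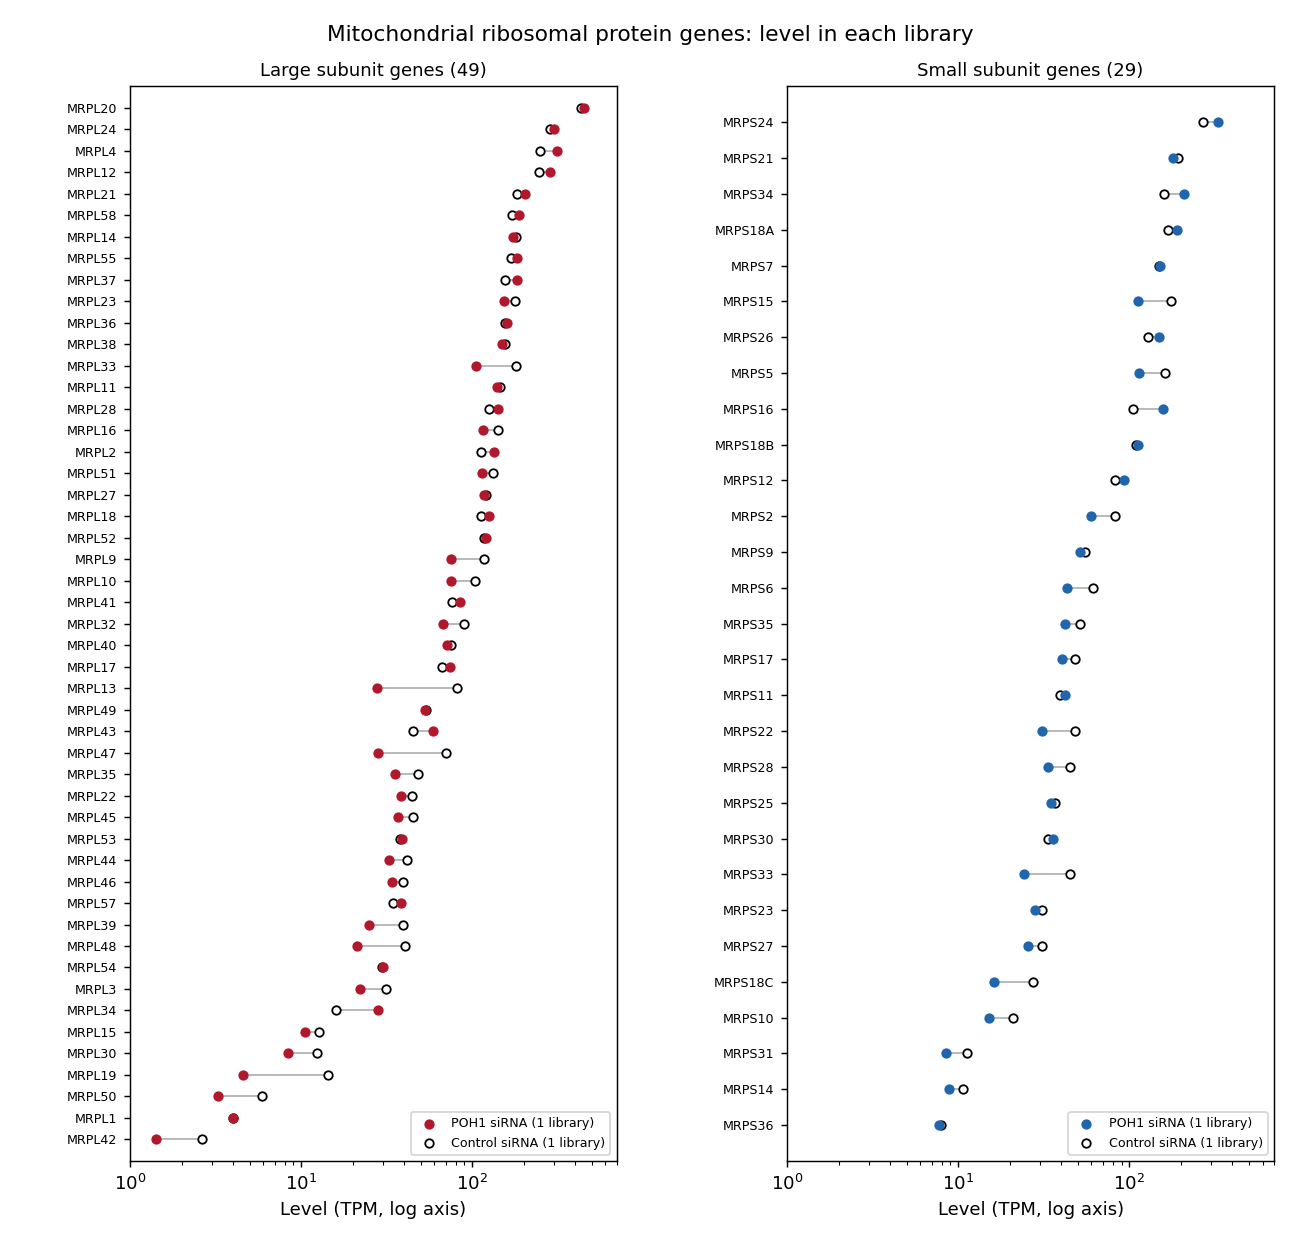
Level of each mitochondrial ribosomal protein gene in TPM on a log axis, large subunit at left and small subunit at right, ordered by the mean of the libraries. Filled points are the POH1 siRNA library, open points the control library and the grey line joins them. The widest gaps belong to MRPL13, MRPL19 and MRPL47, where the filled point is to the left.

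Levels differed far more among the members than between the libraries. In the POH1 siRNA library they ran from 1.42 TPM (MRPL42) to 452 TPM (MRPL20), and in the control library from 2.65 TPM (MRPL42) to 431 TPM (MRPL20). The interquartile range was between 28.7 and 141 TPM in the POH1 siRNA library and between 38.2 and 148 TPM in the control library. Between the libraries, log2(TPM + 1) of the 78 genes correlated with a Spearman rho of 0.94, a description over genes of the same libraries. Over all 15008 genes averaging at least 1 TPM it was 0.96. The order of levels was thus much alike in both libraries, for the members as for all genes. All members together held 0.723% of the TPM in the POH1 siRNA library and 0.740% in the control library.

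The most abundant large-subunit genes were MRPL20, MRPL24 and MRPL4. MRPL20, whose bacterial counterpart binds ribosomal RNA early in assembly, was at 452 TPM in the POH1 siRNA library and 431 TPM in the control library. MRPL24, a protein at the rim of the exit tunnel, was at 300.2 and 283 TPM. In the small subunit MRPS24, a head protein with a bacterial counterpart, led with 328 TPM in the POH1 siRNA library and 269 TPM in the control library. By the mean of the libraries it was followed by MRPS21, at 181 and 193 TPM. For each of these 4 genes the libraries lay within 1.5-fold. The least abundant members were MRPL42, MRPL1 (3.98 and 4.01 TPM) and MRPL50 (3.27 and 5.89 TPM) in the large subunit. MRPS36 was lowest in the small subunit, at 7.69 and 7.91 TPM. It was named as a ribosomal protein but was later assigned to the 2-oxoglutarate dehydrogenase complex.

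The subunits were read apart, and the difference between them was not tested. Of all genes averaging at least 1 TPM, 8.88% were 1.5-fold lower and 10.2% were 1.5-fold higher. In the large subunit 9 of 49 genes (18.4%) were 1.5-fold lower and 1 was 1.5-fold higher, with a median log2 difference of -0.06. In the small subunit 4 of 29 (13.8%) were 1.5-fold lower and none was 1.5-fold higher, with a median of -0.13. The distance between these medians, large less small, was 0.06, and its direction depended on how it was computed. All differences were also adjusted for GC content, by taking off the running median of genes of like GC content that averaged at least 5 TPM. After this adjustment the distance was -0.10. Then 5 of 49 large-subunit and 1 of 29 small-subunit genes were lower, beside 5.19% of all genes. With MRPS30 and MRPS18A counted in the large subunit, where they sit in the human particle, and MRPS36 left out, the unadjusted distance was 0.19. Below the median of all genes lay 36 large-subunit genes (73.5%) and 23 small-subunit genes (79.3%). Summed over its genes, the large subunit had 4887 TPM in the POH1 siRNA library and 5021 TPM in the control library. The small subunit had 2342 and 2383 TPM. The ratio of the sums, large to small, was 2.09 in the POH1 siRNA library and 2.11 in the control library.

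Among the large-subunit genes, 3 stood below the rest. MRPL13 (ENSG00000172172), which has a bacterial counterpart, was at 27.9 TPM in the POH1 siRNA library and 81.0 TPM in the control library, a 2.90-fold lower level. MRPL19 (ENSG00000115364), the counterpart of a bacterial protein at the interface of the subunits, was at 4.57 and 14.3 TPM and 3.13-fold lower. MRPL47 (ENSG00000136522), a protein beside the exit tunnel, was at 28.2 and 69.9 TPM and 2.48-fold lower. The log2 differences were -1.50 for MRPL13, -1.46 for MRPL19 and -1.28 for MRPL47, and the next lowest member was at -0.90.

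Exons of these 3 genes overlap a gene on the opposite strand, and the use of strand in counting is not given. MRPL13 overlaps MTBP (1.68 TPM with POH1 siRNA and 2.45 TPM in the control), and their sum differed by -1.46. MRPL47 overlaps ACTL6A, a chromatin remodelling gene at 30.5 and 50.2 TPM, and their sum differed by -1.02. MRPL19 overlaps GCFC2, at 6.38 and 4.93 TPM, and the sum differed by -0.76.

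The other lower genes of the large subunit were spread over the range of levels. MRPL48, part of the central protuberance, was at 21.1 TPM in the POH1 siRNA library and 40.4 TPM in the control library (log2 difference -0.90). MRPL33, at 106 and 179.6 TPM, was the most abundant of them, with a difference of -0.76. It shares same-strand exons with BABAM2, and the sum of both genes differed by -0.80. MRPL50, particular to mitochondria, had a difference of -0.69. MRPL9 was at 75.6 and 118 TPM, MRPL39 at 25.04 and 39.2 TPM, and MRPL42 at 1.42 and 2.65 TPM, with differences from -0.63 to -0.60. MRPL9 shares exon sequence with OAZ3 on the opposite strand and with a same-strand gene. Summed with both, it differed by -0.56, within 1.5-fold. MRPL48, MRPL50, MRPL39 and MRPL42 share exon sequence with no other gene that averaged at least 1 TPM.

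The gene of the large subunit with the highest difference was MRPL34 (ENSG00000130312), a very small protein with a bacterial counterpart. It was at 28.2 TPM in the POH1 siRNA library and 16.1 TPM in the control library, 1.75-fold higher (log2 difference 0.77). ABHD8 lies on the other strand and overlaps MRPL34. ABHD8 had 100.3 TPM with POH1 siRNA and 72.1 TPM in the control, and the sum of both genes differed by 0.54, within 1.5-fold. The 5 genes after it all lay within 1.5-fold. MRPL43 was at 59.2 and 45.1 TPM and MRPL4 at 311 and 247 TPM in the POH1 siRNA and control libraries. MRPL2, whose bacterial counterpart lies close to the peptidyl transferase centre, was at 135 and 113 TPM. MRPL37, particular to mitochondria, was at 184 and 155 TPM, and MRPL12, the stalk protein that also binds the mitochondrial RNA polymerase, was at 285 and 246 TPM.

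In the small subunit the lowest difference was that of MRPS33 (ENSG00000090263), a head protein particular to mitochondria. It was at 24.1 TPM in the POH1 siRNA library and 45.1 TPM in the control library, 1.87-fold lower. MRPS18C was at 16.2 and 27.5 TPM (log2 difference -0.73), MRPS15 at 112 and 175 TPM (-0.64), and MRPS22 at 30.8 and 47.9 TPM (-0.62). Mutations of MRPS22 cause an inherited deficiency of oxidative phosphorylation. MRPS22 overlaps the more abundant COPB2 on the opposite strand, and their sum differed by -0.37, within 1.5-fold. MRPS5 (114 and 161 TPM) and MRPS6 (43.2 and 60.9 TPM) came next and lay within 1.5-fold.

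At the other end, MRPS16 (ENSG00000182180), whose bacterial counterpart takes part in assembly of the body, was at 156 TPM in the POH1 siRNA library and 105 TPM in the control library. Its log2 difference of 0.57 was just inside the 1.5-fold limit of 0.58. MRPS16 shares same-strand exons with DNAJC9, which was at 78.8 and 98.1 TPM, and the sum differed by 0.21. MRPS34, a protein needed for a stable small subunit, was at 209.7 and 159 TPM, MRPS26 at 149 and 128 TPM and MRPS12, the counterpart of a bacterial decoding-site protein, at 93.4 and 82.0 TPM. With MRPS24 and MRPS18A, these are the 6 highest of the small subunit, none past 1.5-fold.

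The MRPS18 genes are paralogues that sit at different places in the mitoribosome. MRPS18C takes the place of the bacterial protein in the small subunit, MRPS18B is another small-subunit protein, and MRPS18A belongs to the large subunit despite its name. MRPS18A was at 189 TPM in the POH1 siRNA library and 167 TPM in the control library, and MRPS18B at 112 and 109 TPM. The log2 differences were 0.17 for MRPS18A, 0.04 for MRPS18B and -0.73 for MRPS18C. MRPS18C was thus the least abundant of the 3 in both libraries, and the one that was 1.5-fold lower.

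**Figure D2:**
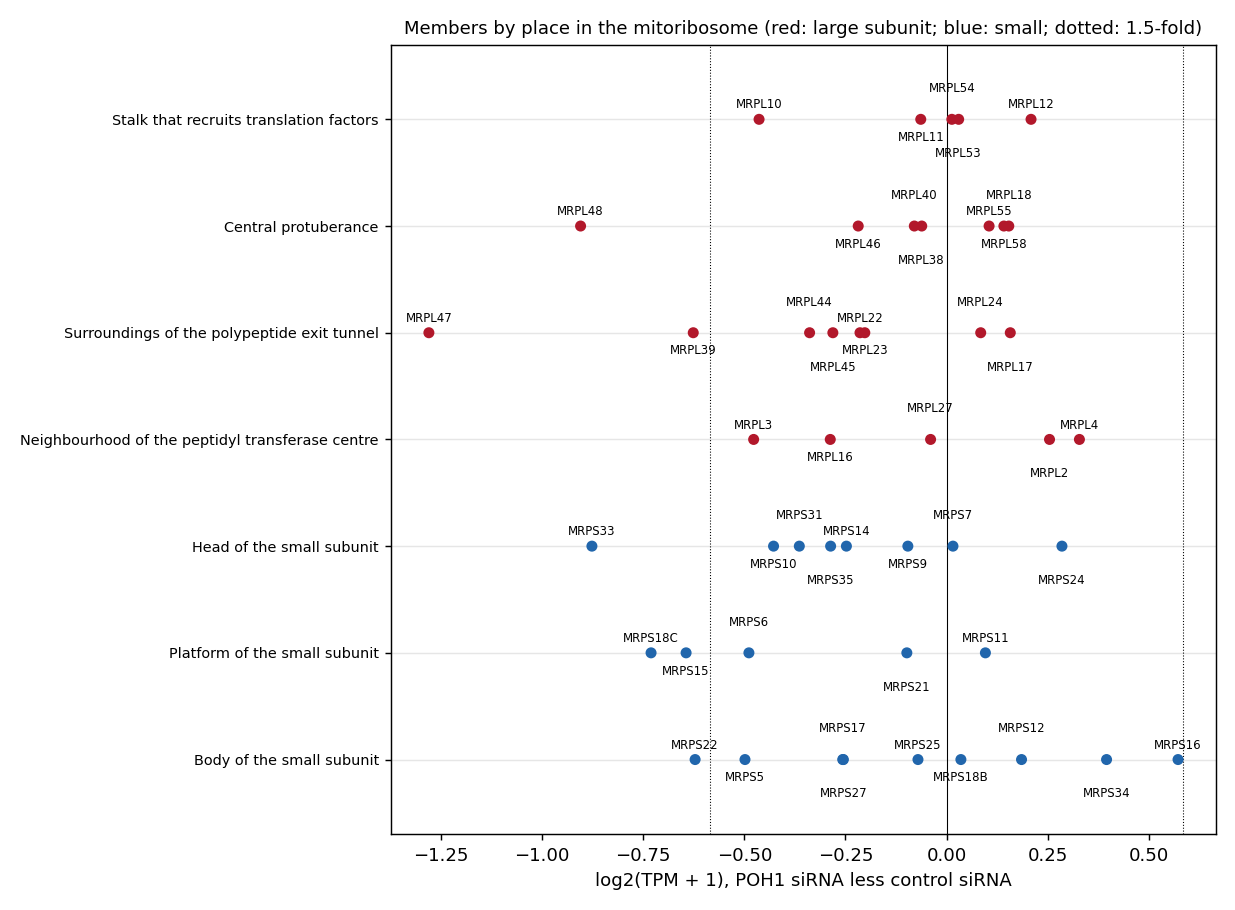
Log2 differences, POH1 siRNA less control on the log2(TPM + 1) scale, of the 47 members assigned to 7 places in the mitoribosome. Each point is 1 gene, red for the large and blue for the small subunit, and dotted lines mark 1.5-fold. The stalk has no gene past the lines, and 2 genes each of the tunnel surroundings and the platform lie to the left.

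Lower genes were found at several places in the particle. The stalk that recruits translation factors had none lower or higher of 5, with MRPL10, the stalk base, at 75.1 and 104 TPM in the POH1 siRNA and control libraries and MRPL11 at 139 and 146 TPM. Of 7 genes of the central protuberance, 1 was lower (MRPL48). MRPL58, a peptidyl-tRNA hydrolase that releases stalled chains and is built into the protuberance, was at 187 and 169.7 TPM. Around the exit tunnel 2 of 8 were lower (MRPL47 and MRPL39), with a median of -0.25. None of 5 genes near the peptidyl transferase centre was lower, with MRPL3 at 22.2 and 31.3 TPM. In the small subunit, 1 of 8 head genes, 2 of 5 platform genes and 1 of 9 body genes were lower, with medians of -0.27, -0.49 and -0.07. Over all genes the lower share was 8.88%, and shares of so few genes are no result about a place. After adjustment for GC content no head, platform or body gene was lower. No place held a gene that was 1.5-fold higher before this adjustment. The places were assigned with the values known and hold few genes each, and differences between them were not tested.

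Lower genes occurred both with and without a bacterial counterpart. Of 30 large-subunit genes with a bacterial counterpart, 5 were lower and 1 was higher (median -0.07). Of 21 large-subunit genes particular to mitochondria, MRPS30 and MRPS18A included, 4 were lower (median -0.01). In the small subunit 2 of 16 genes with a counterpart (median -0.25) and 2 of 10 particular to mitochondria (median -0.19) were lower. After adjustment for GC content the counts of lower genes were 4 of 30 and 1 of 21 in the large subunit, and 1 of 16 and 0 of 10 in the small subunit. Against the 8.88% of all genes before adjustment and 5.19% after it, classes of this size show little, and the difference between them was not tested.

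Base composition moved with the differences. The GC content of a gene was taken as the median over its annotated transcripts. Of 37 members with up to 50% GC, 12 were 1.5-fold lower, and of 41 members above 50%, 1 was (MRPL9, at 53.8%). In classes of all genes averaging at least 5 TPM, the lower share was 26.2% up to 40% GC and 22.7% from 40% to 45%. It was 10.1% from 45% to 50%, 4.38% from 50% to 55% and 1.36% above 55%. A split by GC content was thus seen over all genes as well. Median GC was 42.1% in the 13 lower members and 51.4% in the other 65. Across the 78 members the Spearman correlation of GC content with the log2 difference was 0.68, with 0.70 in the large and 0.57 in the small subunit. Across 10114 genes that averaged at least 5 TPM it was 0.46. With the GC content of the coding sequence alone, it was 0.73 over the members and 0.49 over 9126 protein-coding genes. Genes of one library pair share its preparation, so these correlations are descriptions without a test. The mean level moved with the differences as well, with a Spearman correlation of 0.48 over members and 0.05 over the 10114 genes. Of 33 members with 100 TPM or more in the control library 3 were lower, and of the other 45 there were 10. Of all genes averaging at least 1 TPM 8.88% were lower, and their share by level was not computed. The control level is part of the difference, so this split is a description only. For transcript length the Spearman correlation over members was -0.02.

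**Figure D3:**
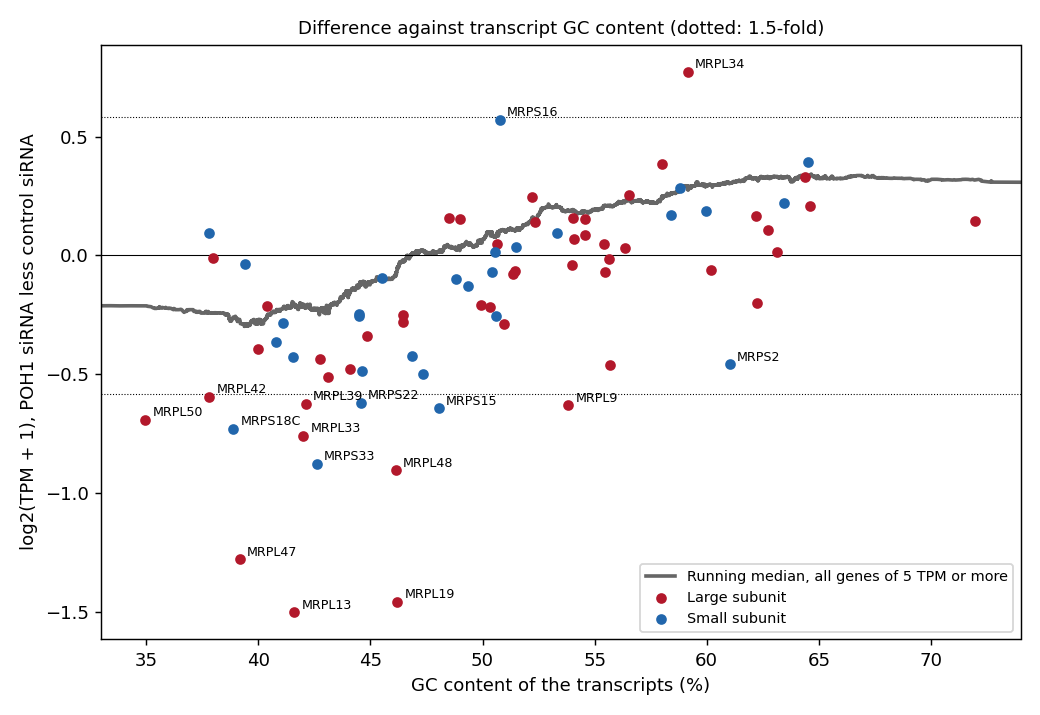
Log2 difference of each member, POH1 siRNA less control on the log2(TPM + 1) scale, against the GC content of its transcripts in percent, red for the large and blue for the small subunit. The grey line is the running median of all genes averaging at least 5 TPM, and dotted lines mark 1.5-fold. MRPL13, MRPL19 and MRPL47 lie far below the line, and most members lie below it.

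The adjustment for GC content subtracted the running median of genes averaging at least 5 TPM and added back the median of those genes. After it 6 members were 1.5-fold lower and 2 were 1.5-fold higher, against 13 and 1 before. The lower share was 7.69%, beside 5.19% of all genes, and the higher share 2.56%, beside 12.6% of all genes. MRPL19 (-1.25), MRPL13 (-1.15), MRPL47 (-0.87), MRPL48 (-0.69) and MRPL9 (-0.67) were lower both before and after adjustment. MRPS2 (61.0% GC) was lower after it, at -0.62, with 59.5 TPM in the POH1 siRNA library and 82.2 TPM in the control library. MRPL34 (0.64) and MRPS16 (0.61) were higher. The members' median was -0.03 after adjustment and that of all genes 0.15.

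Factors known to control nuclear genes of mitochondria include NRF1, GABP of the ETS family and YY1. Promoter sequence was available from RefSeq (build GRCh38.p14) for 69 members in 85 windows, and the 250 bases upstream of each start were searched on both strands. The windows below belong to a gene that was lower (MRPL47), a gene with matches to several motifs (MRPL32) and the highest of the small subunit (MRPS16). Capitals mark matches to TGCGCA (the NRF1 core), CCGGAAG (ETS) or AAGATGG (YY1), or to their reverse complements.
MRPL47: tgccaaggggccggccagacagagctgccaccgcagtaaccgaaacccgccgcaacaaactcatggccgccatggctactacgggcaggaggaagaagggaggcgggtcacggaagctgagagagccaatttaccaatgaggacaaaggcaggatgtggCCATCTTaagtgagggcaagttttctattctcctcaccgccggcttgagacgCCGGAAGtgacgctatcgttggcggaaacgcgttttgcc
MRPL32: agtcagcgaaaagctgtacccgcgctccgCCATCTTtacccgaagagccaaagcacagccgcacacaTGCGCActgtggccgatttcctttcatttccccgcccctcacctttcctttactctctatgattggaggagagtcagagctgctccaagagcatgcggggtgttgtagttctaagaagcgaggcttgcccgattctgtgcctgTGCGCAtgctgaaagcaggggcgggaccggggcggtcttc
MRPS16: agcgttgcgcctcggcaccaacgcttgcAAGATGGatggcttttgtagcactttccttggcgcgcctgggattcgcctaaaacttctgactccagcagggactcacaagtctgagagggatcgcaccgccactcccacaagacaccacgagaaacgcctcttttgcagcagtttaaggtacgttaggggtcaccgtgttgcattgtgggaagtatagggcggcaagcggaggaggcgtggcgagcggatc
The MRPL47 window is chr3:179604639-179604888 on the minus strand and has 2 matches, CCATCTT and CCGGAAG. The MRPL32 window is chr7:42932126-42932375 on the plus strand and has 3. The MRPS16 window is chr10:73252645-73252894 on the minus strand and has 1. MRPL32 was at 67.7 TPM in the POH1 siRNA library and 89.2 TPM in the control library, within 1.5-fold. The proteasome gene PSMA2, whose exons overlap those of MRPL32 on the other strand, had 80.3 TPM with POH1 siRNA and 132 TPM in the control.

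CCGGAAG was found in 31.8% of the members' windows and in 14.1% of 14355 windows of protein-coding genes that averaged at least 1 TPM. TGCGCA was found in 18.8% and 9.93%, and AAGATGG in 12.9% and 3.46%. The TATA core TATAAA was found in 2.35% of the members' windows, against 6.09%. Both subunits had CCGGAAG at about the same share, 30.8% of large-subunit and 33.3% of small-subunit windows. Of 16 windows of the lower members 7 held CCGGAAG, and of 69 windows of the other members 20 did. TGCGCA was in 2 of the 16 windows and in 14 of the 69. A match is a string of letters and not a bound site, and windows of 1 gene can overlap.

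Messenger RNAs for the factors themselves were mostly within 1.5-fold. The list held NRF1, GABPA, GABPB1, YY1, coactivators and other regulators, and 9 of its 10 genes averaged at least 1 TPM. Of these 1 was higher (MYC, 9.38 TPM in the POH1 siRNA library and 4.69 TPM in the control library) and none was lower, with a median of 0.18. The higher share was 11.1%, beside 10.2% of all genes. GABPB1 was at 7.15 and 10.3 TPM and the coactivator gene PPARGC1B at 2.06 and 1.08 TPM. In plain TPM PPARGC1B was 1.91-fold higher and GABPA 1.51-fold lower, and neither was called on the log2(TPM + 1) scale.

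**Figure D4:**
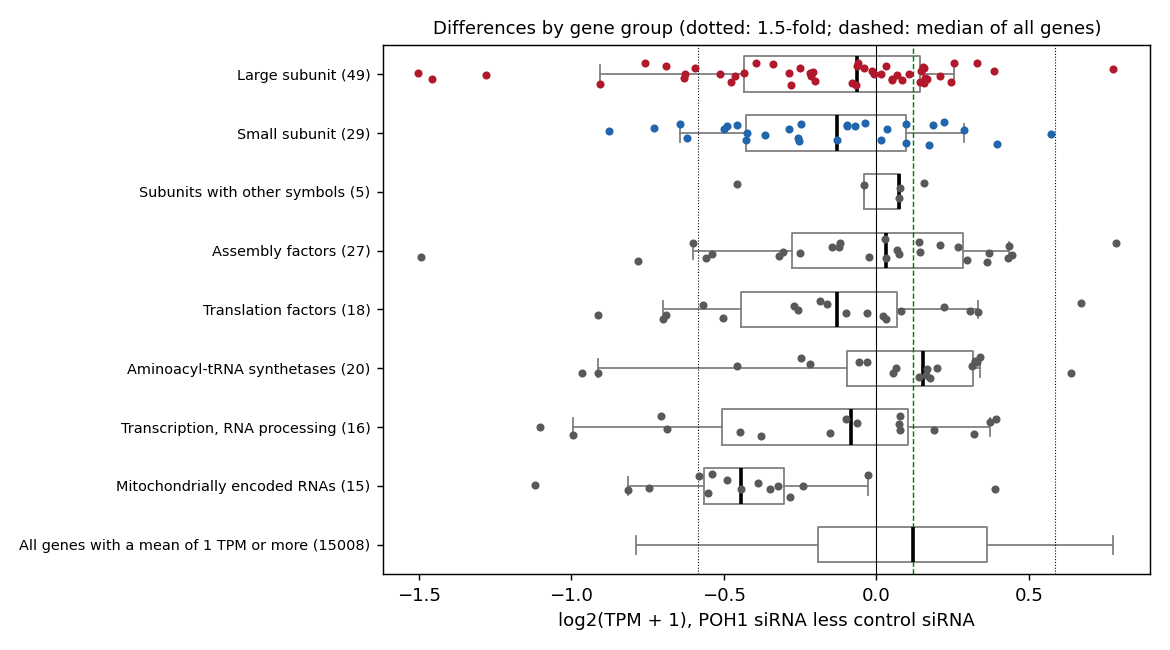
Log2 differences, POH1 siRNA less control on the log2(TPM + 1) scale, for the members by subunit, related gene lists and all genes. Points are genes, boxes the interquartile range with the median as a thick line, and whiskers the 5th to 95th percentiles, with dotted lines at 1.5-fold and a dashed line at the median of all genes. Both subunits have medians left of the dashed line, and the mitochondrially encoded RNAs lie farthest left.

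The other genes of mitochondrial translation were read beside the members. Of all genes averaging at least 1 TPM, 8.88% were lower and 10.2% higher, and after adjustment for GC content 5.19% and 12.6%. The 5 mitoribosome proteins without an MRP symbol (DAP3, PTCD3, AURKAIP1, CHCHD1 and GADD45GIP1) all lay within 1.5-fold, with a median of 0.07. PTCD3, which binds RNA in the small subunit, was at 16.4 TPM in the POH1 siRNA library and 22.9 TPM in the control library, DAP3 at 186 and 167 TPM and GADD45GIP1 at 258 and 245 TPM. Of 27 assembly factors, 3 were lower and 1 was higher (median 0.03), and after adjustment for GC content 2 each way. MALSU1, which keeps the unfinished large subunit from joining the small one, was at 4.45 and 14.3 TPM, with a log2 difference of -1.49. C1QBP, a matrix protein, was at 136 and 235 TPM. METTL15, a methyltransferase of the small ribosomal RNA, was at 2.18 and 0.847 TPM.

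Translation factors of mitochondria had 3 lower and 1 higher of 18 (median -0.13). Beside the 8.88% lower and 10.2% higher of all genes, lists of this size show little. The same holds for the 2 lists below, and differences between lists were not tested. The recycling factor gene GFM2 was at 10.9 TPM in the POH1 siRNA library and 21.4 TPM in the control library. SLIRP, which stabilises mitochondrial messenger RNAs, was at 118 and 193 TPM, GUF1, a GTPase gene, was at 3.02 and 5.49 TPM, and the elongation factor gene TSFM was higher, at 57.2 and 35.6 TPM. After adjustment for GC content none of the 18 was lower and 3 were higher (median 0.00). The aminoacyl-tRNA synthetases and their relatives had 2 lower and 1 higher of 20 (median 0.15), and after adjustment for GC content 1 lower and none higher. Those past 1.5-fold before adjustment were RARS2 (13.8 and 27.8 TPM), IARS2 (34.6 and 66.0 TPM) and, higher, SARS2 (29.7 and 18.8 TPM), which overlaps MRPS12 on the opposite strand. Of 16 genes of mitochondrial transcription, replication and RNA processing, 4 were lower and none was higher (median -0.08), and after adjustment for GC content 1 was lower (median 0.12). SSBP1, which coats single-stranded mitochondrial DNA, was at 142 and 306 TPM, TRMT10C, of the mitochondrial RNase P, at 11.9 and 24.7 TPM, and the elongation factor gene TEFM at 2.67 and 5.002 TPM.

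The RNAs that the mitoribosome contains or translates were mostly below 0 in difference, with few past 1.5-fold. Of 15 mitochondrially encoded ribosomal and messenger RNAs, 3 (20.0%) were 1.5-fold lower and none was 1.5-fold higher, beside 8.88% and 10.2% of all genes. Of the 15, 14 were below 0, with a median of -0.44. After adjustment for GC content 1 was lower and 1 (MT-ND4L) was higher, with a median of -0.16. The small ribosomal RNA MT-RNR1 was at 2003 TPM in the POH1 siRNA library and 2439.8 TPM in the control library, and the large one, MT-RNR2, at 3343 and 4550.2 TPM. MT-ATP8 was at 1382 and 3002 TPM, MT-ND6 at 1569.6 and 2761 TPM and MT-ND4 at 6942 and 11652 TPM. The one above 0 was MT-ND4L, at 9671 and 7385 TPM, and its reading frame overlaps that of MT-ND4. MT-ATP8 overlaps MT-ATP6 in the same way, and MT-ND6 lies opposite other mitochondrial transcripts. These 15 RNAs summed to 105135 TPM in the POH1 siRNA library and 136545 TPM in the control library, and they are part of the sum to which TPM is scaled. With TPM recomputed without mitochondrially encoded genes and the 50 most abundant genes, 17.9% of the members were lower and 1.28% were higher, beside 11.5% and 8.96% of all genes.

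Cytosolic ribosomal protein genes and nuclear respiratory chain genes were read as the most similar groups. Among the cytosolic ribosomal protein genes that averaged at least 1 TPM, 16 of 85 (18.8%) were 1.5-fold lower and 1 was 1.5-fold higher. Their median was -0.06. For the nuclear respiratory chain genes it was 16 of 76 (21.1%) lower and 1 higher, with a median of -0.02. Over all genes the lower share was 8.88% and the higher share 10.2%, with a median of 0.12. The members, with 13 of 78 (16.7%) and a median of -0.09, were close to both groups before adjustment for GC content. After it, 6 of 78 members (7.69%), 12 of 85 cytosolic and 12 of 76 respiratory chain genes were lower, with medians of -0.03, -0.05 and 0.02. The lower share of all genes was then 5.19%, with a median of 0.15. Nothing particular to the mitoribosome is read from these counts. The lowest member was at -1.50, the lowest cytosolic gene at -2.42 and the lowest respiratory chain gene at -2.60. Each of these values is that of 1 gene, and a difference between the groups was not tested.

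Several members have pseudogenes or overlapping genes that could share their reads. A total of 31 members share exon sequence with another gene that averaged at least 1 TPM, 10 of them on the same strand and 23 on the opposite strand. Among the 13 lower members, 7 do and 6 do not. MRPL45 has pseudogenes that held 11.2 TPM in the POH1 siRNA library and 17.2 TPM in the control library. The log2 difference of MRPL45 alone was -0.28 and that of the sum -0.37. For MRPS31 the pseudogenes held 3.71 and 3.93 TPM, and the difference of the sum was -0.29, against -0.36 for the gene alone. Pseudogenes of every other member held under 3% of its TPM.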

How the data were processed

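Per the labels' protocols, Trizol RNA went into mRNA libraries for Illumina sequencing. CASAVA and HISAT2 were used with build hg19, per the submitters' processing notes. Not given in the sources used here are quantifier, annotation, strand use and depth. The authors deposited TPM per Ensembl gene, which sum to 999968 in the POH1 siRNA library and 999955 in the control library. TPM keeps no depth, so intervals and floors could not be computed.

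Symbols were found for 57392 of 58174 identifiers. GENCODE release 29 (GRCh38, 57836 identifiers found) gave gene types, GC content, coding sequences and exon overlap, and no hg19 coordinates are printed. Calculations used Python 3.11.15, pandas 2.3.3 and scipy 1.17.1 and were tested on simulated data. The difference is log2(TPM + 1), POH1 siRNA less control, over 15008 genes averaging at least 1 TPM, called at 1.5-fold. Named genes are the 6 highest and 6 lowest of each subunit by difference, the 3 most abundant, the MRPS18 paralogues, and the 3 farthest from 0 in each related list. Others were chosen after their values were seen. The members and lists were chosen with earlier results of these data known. Alternatives were pseudocounts of 0.1 and 5, other filters, 3 other scalings, GC adjustment and changes of membership. A marker gene and a coding sequence are not reported here.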

Additional observations from a re-analysis of the deposited data

How the results depend on the processing

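No paired analysis was possible because each group held 1 library, and leaving out a replicate was not possible for the same reason. The count of lower members was 13 as reported, 6 after GC adjustment and 7 without members that overlap a gene on the opposite strand. In these settings the large subunit had 9, 5 and 5 and the small subunit 4, 1 and 2 lower genes. Scaled to a median ratio of 1, the count of lower members rose to 19, with 12 in the large and 7 in the small subunit. These were 24.4% of the members, beside 12.3% of all genes in the same setting. With trimmed-mean scaling 18 members were lower. The count of higher members was 1 as reported, 2 after GC adjustment, 0 without members that overlap on the opposite strand and 0 when members were summed with exon-sharing genes, a setting added after the data were seen. The distance between subunit medians, 0.0645, was -0.0984 after GC adjustment, 0.1899 with subunits by place in the particle and 0.0356 with the proteins without an MRP symbol added. The members' median less that of all genes was -0.2067, and -0.0876 without a filter, where most genes are at 0. Of all genes, 1333 were lower and 1535 higher. With a pseudocount of 5 there were 668 and 636, with a filter at 5 TPM 855 and 952, and 778 lower after GC adjustment. Higher genes numbered 960 with median scaling and 1004 with trimmed-mean scaling. The causes were not tested. MRPL13, MRPL19, MRPL47 and MRPL48 were 1.5-fold lower in every setting run that kept them, and no called member changed direction. The unknown depth limits the low genes most, such as MRPL42 and MRPL50.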
